A study of Mus musculus with 74 samples.

Results

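The transcripts described here are those whose level was lower after erythropoietin in control cells and less so after Stag2 knockdown. They were selected on measured levels in mouse HPC-7 cells, a haematopoietic progenitor line, and 59 of 55943 transcript identifiers met the rule. Levels are in CPM, the reads of a transcript per 1000000 assigned reads of its library, without the single most counted identifier. A member averaged at least 2 CPM in control progenitors (HPC Luc), at least 2 times its mean in erythropoietin-treated control cells (Ery Luc). Its mean in erythropoietin-treated Stag2-knockdown cells (Ery shStag2) was at least 2 CPM and at least 1.5 times the Ery Luc mean, with both Ery shStag2 libraries above both Ery Luc libraries. Its mean in Stag2-knockdown progenitors (HPC shStag2) was below 1.5 times that of HPC Luc.

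All cells carried a doxycycline-inducible short hairpin RNA in the HPC-7 line, and doxycycline was given for 72 h in every group. The Ery groups then had 48 h with erythropoietin at 4 U/l and stem cell factor at 20 ng/ul, with the hairpin against Stag2 (2 libraries) or against luciferase (2 libraries). The HPC groups were kept with stem cell factor at 100 ng/ul and carried the hairpin against Stag2 (3 libraries), Rad21 (3 libraries), Smc1a (2 libraries) or luciferase (3 libraries). The luciferase hairpin is the control. Whether the libraries of a group are separate cultures or separate hairpins is not stated in the labels, and the p-values below measure only the spread between libraries, possibly a technical one. Only HPC titles add "inhibitor", a word left unexplained. Between the HPC and Ery groups, erythropoietin, the lower stem cell factor and anything that goes with that word therefore cannot be told apart.

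Erythropoietin is the hormone that drives late red cell formation, and stem cell factor, the ligand of Kit, sustains progenitors. As progenitors enter the red cell path, genes of other lineages and of the progenitor state are switched down while haemoglobin and membrane genes are switched on. Rad21 and Smc1a belong to the core of cohesin, a ring-shaped complex that forms chromatin loops and joins sister chromatids, and Stag2 is one of the alternative subunits that bind the ring. The deposited tables and the reference tables used here do not pair the transcript identifiers with genes. Members are therefore given by identifier, without gene names, roles or sequences, and neither the knockdown of the targeted genes nor cell type markers were checked here.

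Assigned counts ran from 22288469 to 33355332 per library, and the identifier left out of the totals held 25.8% to 33.6% of them. Within groups, pairs of libraries differed beyond counting noise (chi-square over its degrees of freedom 2.2 to 19.8), and none were merged. Among HPC libraries the first principal component, 21.4% of the variance, set the libraries numbered 3 higher than the other libraries of their group, and both shSmc1a libraries lay between the shStag2 and shRad21 libraries numbered 3. The labels do not name this difference. Counts of members called between HPC groups, and the named fold changes that it moved most, are also given from a fit with a term for these library sets. The sets join the HPC libraries numbered 3 with both shSmc1a libraries against all others, and no label gives them. On that component HPC Luc library 3 lay at -8.29, near shStag2 libraries 1 and 2 (-9.54 and -10.0), and the shSmc1a libraries lay at 24.6 and 24.5. For the shSmc1a libraries, set and hairpin cannot be told apart by position. In 1 member, ENSMUST00000198477.1, a single HPC Luc library set the HPC Luc mean.

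The choice narrowed in steps. In HPC Luc 11346 identifiers averaged at least 2 CPM, and Ery Luc means were lower by 2 times or more in 1077 of them (9.49%). Of these, 470 had at least 2 CPM in Ery shStag2. They are called the 470 candidates below, and they include the 59 members. In Ery shStag2, 75 of them stood at 1.5 times Ery Luc or more, all of them without overlap of the libraries. The last condition left out 16, whose HPC shStag2 level was 1.504 to 2.37 times that of HPC Luc (median 1.75). Among all 10892 identifiers with at least 2 CPM in either Ery group, 430 (3.95%) stood in Ery shStag2 at 1.5 times Ery Luc or more without overlap, and nothing is read from the members' share here because it was chosen. The lower edge of the group was crowded. The members nearest the threshold had Ery shStag2 means of 1.501 and 1.504 times the Ery Luc mean, the nearest others had 1.498 times in both cases, and 18 members lay from 1.5 to under 1.6 beside 21 others from 1.4 to under 1.5.

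Members were mostly transcripts of low level. In these bulk libraries, fewer cells of a type and less RNA per cell cannot be told apart. The median of their means was 4.39 CPM in Ery shStag2 and 2.18 CPM in Ery Luc. It was 6.64 CPM in HPC shStag2, 7.004 CPM in HPC shRad21, 7.10 CPM in HPC shSmc1a and 6.10 CPM in HPC Luc. HPC Luc means ran from 2.29 to 454 CPM, with 26 members under 5 CPM, 22 from 5 to under 20 CPM and 11 at 20 CPM or more. The lowest count of a member was 29 and 39 reads in the Ery shStag2 libraries and 17 and 15 reads in the Ery Luc libraries, where the medians were 47 and 43 reads. The smallest differences therefore rest on few reads per library.

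Ery shStag2 levels were 1.501 to 7.27 times those of Ery Luc, with a median of 1.76, and 45 members lay under 2 times, 12 from 2 to under 3 times and 2 at 3 times or more. These ratios were used to choose the members and are a description without a test. The higher of the paired libraries stood a median of 1.15 times above the other in Ery shStag2 and 1.17 times in Ery Luc, and the largest such gaps were 1.78 and 2.67 times. The lower Ery shStag2 library exceeded the higher Ery Luc library by a median of 1.48 times. In 26 members that margin was at least 1.5 times, and in 2 it was under 1.1 times. Both of the narrow ones had under 5 CPM in HPC Luc.

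The rule gave the ratio of Ery shStag2 to Ery Luc the same lower bound in every member, at all levels. Its medians by level therefore describe the choice, and nothing is read from their closeness. The median ratio of Ery shStag2 to Ery Luc was 1.81 in the 26 members under 5 CPM in HPC Luc, 1.72 in the 22 from 5 to under 20 CPM and 1.74 in the 11 at 20 CPM or more. From the lowest class to the highest, the median gap between the Ery Luc libraries was 1.32, 1.14 and 1.15 times. Between the Ery shStag2 libraries it was 1.25, 1.13 and 1.09 times. The median share of the control drop kept, defined below, was 55.3%, 48.5% and 44.6%. Summed over the 58 members other than ENSMUST00000198477.1, which was set aside after its values were seen, the libraries held 514 and 517 CPM in Ery shStag2, against 257 and 261 CPM in Ery Luc. The same sum was 746 to 823 CPM in HPC shStag2, 769 to 814 CPM in HPC shRad21, 718 to 759 CPM in HPC shSmc1a and 674 to 721 CPM in HPC Luc. The sums of the Ery shStag2 libraries lay below those of all HPC libraries. They lay above those of Ery Luc, as did those of HPC Luc, but the rule set both of these orders in the means of every member.

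**Figure D1:**
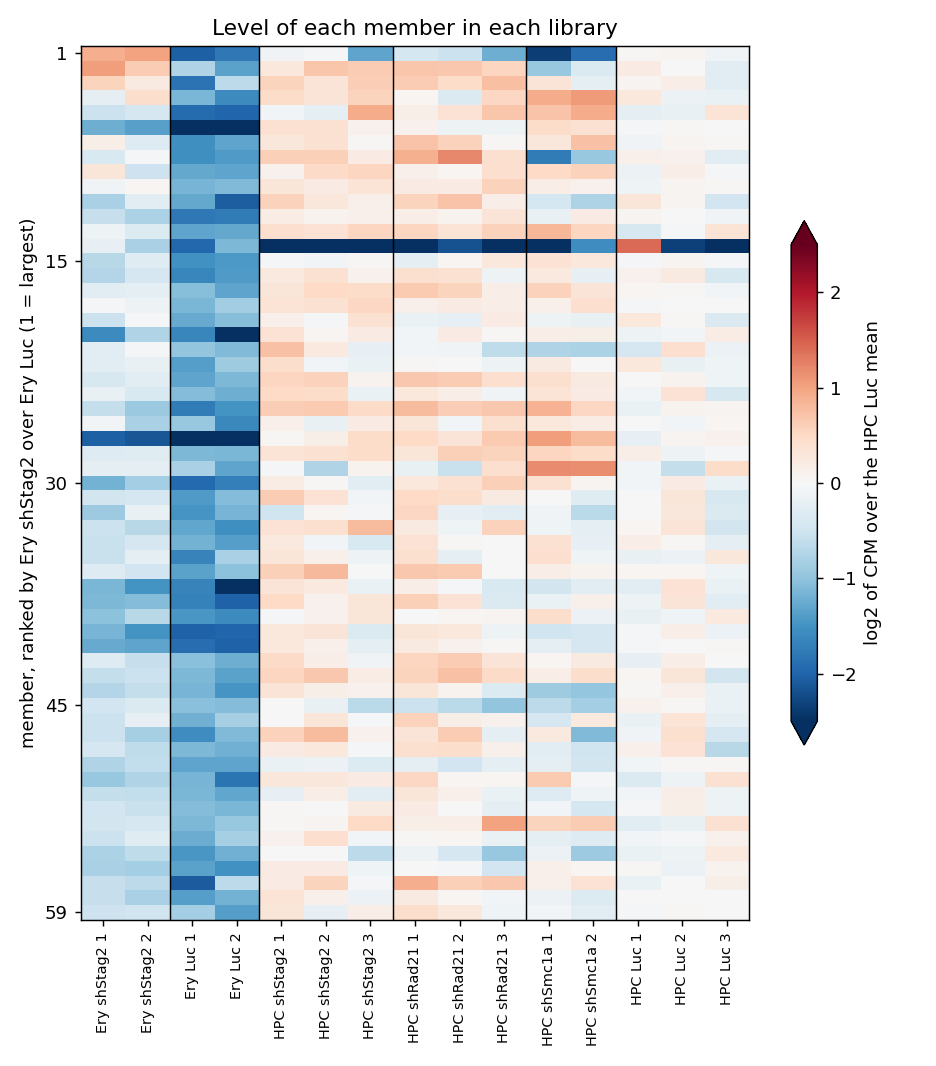
Each row is a member, ranked by the ratio of its Ery shStag2 to its Ery Luc mean, and each column a library. Colour is the log2 of CPM over the member's HPC Luc mean, blue below and red above, and values past 2.5 in size have the end colours. Ery Luc columns are the bluest, Ery shStag2 columns are paler blue in most rows, and the dark row is ENSMUST00000198477.1, whose mean was set by HPC Luc library 1.

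In most members the level was kept in part, not in full. In Ery shStag2 the mean was below that of HPC shStag2 in 56 of 59 members, and the median ratio of Ery shStag2 to HPC shStag2 was 0.627, from 0.202 to 6.04. The rule bounded both means, so these values describe the choice and nothing is read from them against other identifiers. Among the 470 candidates, which had the same repression in control cells, 465 were lower in Ery shStag2 than in HPC shStag2, with a median ratio of 0.435. In 13 members (22.0%) the Ery shStag2 mean was lower than the HPC shStag2 mean by 2 times or more, a difference seen in 11% of identifiers with at least 2 CPM in HPC shStag2, which were not chosen for a drop. Kept therefore means above Ery Luc here, not an unchanged level.

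Set beside the drop between the control groups, Ery shStag2 kept a median of 50.8% of it, counted as the Ery shStag2 minus Ery Luc mean over the HPC Luc minus Ery Luc mean. The share ran from 11.9% to 261%. It was under 25% in 4 members, 25% to under 50% in 23, 50% to under 75% in 22, 75% to under 100% in 6 and at least 100% in 4. The rule also set the means behind the following counts of separate libraries, so they are given as a description beside all identifiers of that level, and nothing is read from the difference. Every Ery Luc library lay below every HPC Luc library in 58 members (background 39.6%). Every Ery shStag2 library lay below every HPC Luc library in 39 members (background 42.3%), and every Ery shStag2 library lay below every HPC shStag2 library in 45 (background 46.5% of identifiers with at least 2 CPM in HPC shStag2). The lowest of the 6 group means was that of Ery Luc in 57 members. The highest was HPC shRad21 in 21, HPC shStag2 in 16, HPC shSmc1a in 16, HPC Luc in 4 and Ery shStag2 in 2.

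**Figure D2:**
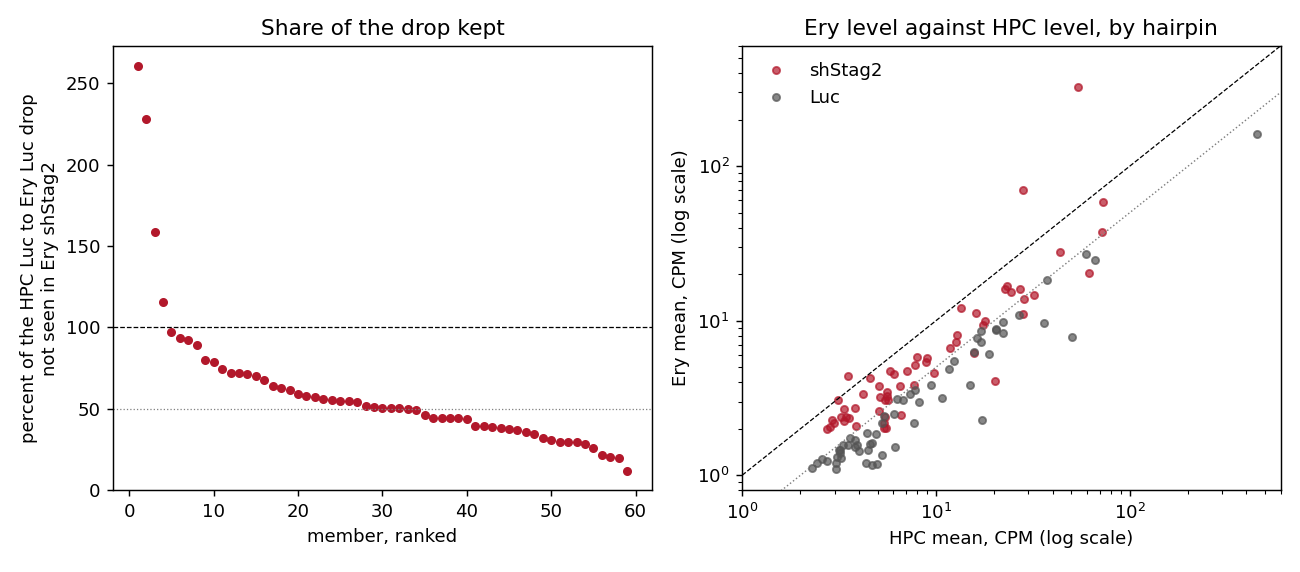
The left panel ranks the 59 members by the percent of the control drop that Ery shStag2 kept, with lines at 50% and 100%, and 4 members reach 100%. The right panel plots each member's Ery mean against its HPC mean in CPM on log axes, for shStag2 and for Luc, with a dashed line at equal levels and a dotted line at 1 part in 2, and 56 shStag2 points lie below the dashed line.

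ENSMUST00000029871.10 had the largest ratio of Ery shStag2 to Ery Luc. Its levels were 68.3 and 72.3 CPM in Ery shStag2, against 8.82 and 10.5 CPM in Ery Luc. In progenitors it had 34.1, 35.7 and 14.5 CPM in HPC shStag2, against 36.9, 37.9 and 33.9 CPM in HPC Luc. Both Ery shStag2 libraries were above every library of the other groups, so its level after erythropoietin was not only kept but was 2.502 times that of HPC shStag2. The HPC shStag2 library numbered 3 was the low one of its group. Means were 70.3 ± 2.8 CPM in Ery shStag2 and 9.67 ± 1.2 CPM in Ery Luc (SD, n = 2 each), a ratio of 7.27. It was a member in every alternative choice tried.

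ENSMUST00000042070.5 was the second by that ratio among members with at least 5 CPM in HPC Luc, at 2.76. Its levels were 3.60 and 3.91 CPM in Ery shStag2, against 1.39 and 1.34 CPM in Ery Luc. In HPC shStag2 they were 5.04, 4.50 and 9.99 CPM, against 4.46, 4.62 and 6.69 CPM in HPC Luc. Here the Ery shStag2 libraries lay below every HPC library, with 61.5% of the control drop kept, and the libraries numbered 3 were the high ones in both HPC groups. The Ery Luc values rest on 31 and 25 reads.

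ENSMUST00000198477.1 owes its membership to 1 library. It had 394 and 257 CPM in Ery shStag2 and 116 and 207 CPM in Ery Luc. In HPC shStag2 it had 53.7, 64.8 and 43.1 CPM, while HPC Luc held 1220, 89.8 and 52.6 CPM. Without HPC Luc library 1 its Ery Luc libraries were both above the HPC Luc libraries, and it was no member. ENSMUST00000166731.1 lay near the threshold, with an Ery shStag2 mean 1.56 times that of Ery Luc, at 11.7 and 12.6 CPM in Ery shStag2 and 7.92 and 7.64 CPM in Ery Luc. Its HPC shStag2 levels were 16.2, 14.2 and 10.2 CPM, against 17.5, 16.7 and 14.6 CPM in HPC Luc, and it was no member when CPM were scaled with TMM or with DESeq2 size factors.

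**Figure D3:**
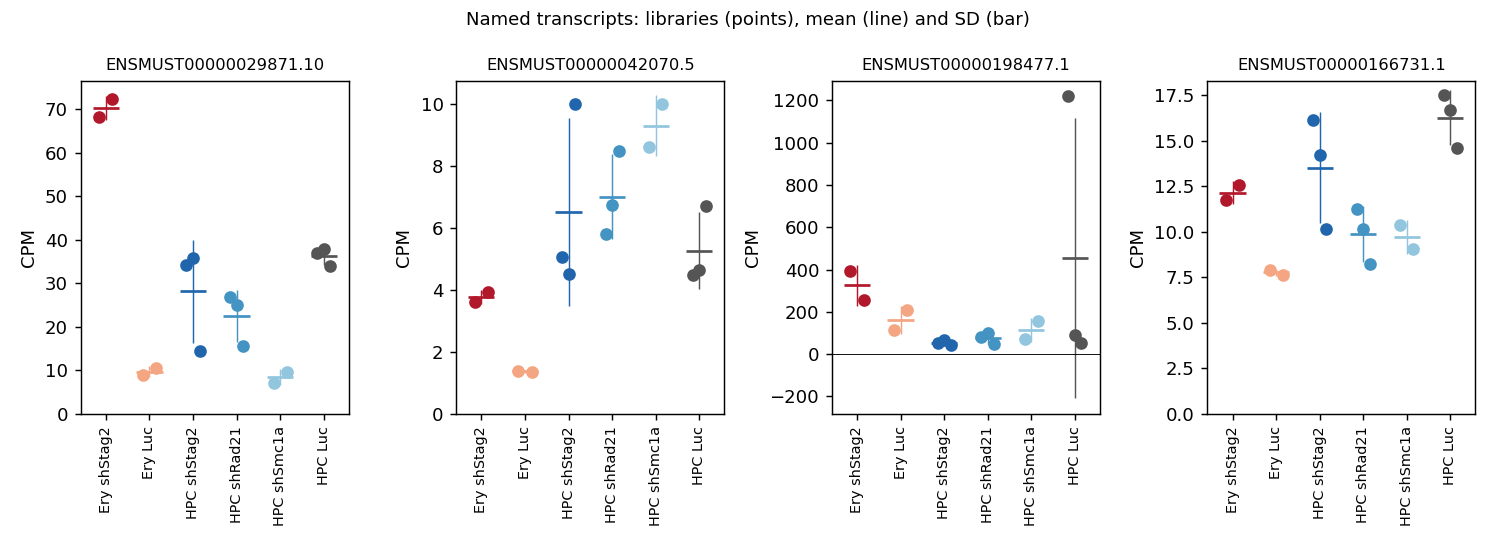
Each panel shows CPM of 1 named transcript in the 15 libraries by group, with points for libraries, a horizontal line for the group mean and a vertical bar for the SD. ENSMUST00000029871.10 is highest in Ery shStag2 at 68.3 and 72.3 CPM, and the HPC Luc bar of ENSMUST00000198477.1 runs below 0 because 1 library of 3 stands at 1220 CPM.

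The choice was then made with 1 library of each Ery group and read in the other, a measure in libraries that did not choose (added after the data were seen). The HPC libraries are the same in both readings, and only the Ery libraries differ. With the Ery libraries numbered 1, 104 identifiers were chosen, and their median ratio of Ery shStag2 to Ery Luc was 1.86 in the libraries used and 1.31 in those numbered 2. There 82 of 104 were above 1 and 36 (34.6%) were at least 1.5, against 55.4% and 14.3% of the 509 identifiers the choice was made from. With the Ery libraries numbered 2, 99 were chosen, with a median of 1.78 in the libraries used and 1.36 in those numbered 1. Of these, 74 were above 1 and 33 (33.3%) at least 1.5, against 57.7% and 14.8% of 494 candidates. In both directions the median ratio of the chosen identifiers was smaller in the libraries that did not choose. It was above that of the candidates, whose medians there were 1.05 and 1.06. The candidates include the chosen identifiers and are no separate background. Of the 104 chosen identifiers 39 were members, and of the 99 chosen 41 were, so most of those read were no members. The libraries of a group may be technical repeats, so whether the higher level recurs in separate cultures was not tested.

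**Figure D4:**
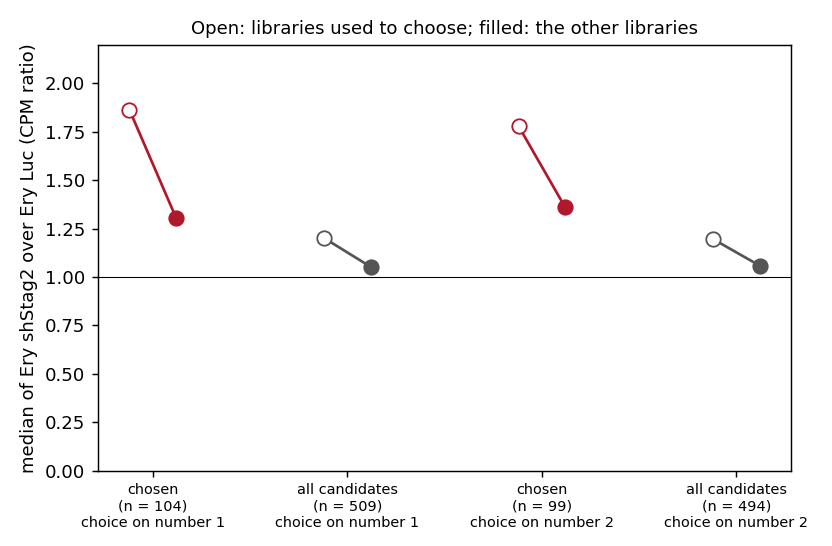
The median ratio of Ery shStag2 to Ery Luc is plotted for the identifiers chosen with 1 library of each Ery group and for all candidates, in the libraries used (open) and in the others (filled). The chosen identifiers drop to 1.31 and 1.36 in the other libraries, and the candidates to 1.05 and 1.06.

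Of the 59 members, 19 were chosen whichever of the 10 libraries of the 4 groups was left out. Their ratio of Ery shStag2 to Ery Luc ran from 1.56 to 7.27 with a median of 1.91, and their HPC Luc means from 3.84 to 59.7 CPM. Under 3 other ways to scale the CPM 29 members were kept, and 16 met both. With each pair of Ery libraries alone, 24 members were chosen both times.

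In progenitors, members were more often above than below control with the hairpins against Stag2 and Rad21, and close to evenly spread with that against Smc1a. The median ratio to HPC Luc was 1.16 in HPC shStag2, with 48 members higher (81.4%), but HPC shStag2 was used in the choice. In HPC shRad21 it was 1.16, with 45 higher (76.3%), and in HPC shSmc1a 1.06, with 33 higher (55.9%). For the 470 candidates these medians were 1.05, 1.08 and 1.01, with 61.9% higher in HPC shStag2, 67.4% in HPC shRad21 and 51.9% in HPC shSmc1a. For all 11346 identifiers the medians were 1.02, 1.02 and 1.01, with 59.5% higher in HPC shStag2, 54.5% in HPC shRad21 and 52.9% in HPC shSmc1a. These comparisons share the HPC Luc libraries, which the choice used through a minimum and through the ratios to Ery Luc and HPC shStag2, so the values stand side by side without a test over the list.

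The comparison of HPC shRad21 with HPC shSmc1a used no library of the choice, but it also crosses the library sets. Only HPC shRad21 library 3 is placed with the shSmc1a libraries. On the first principal component HPC shRad21 libraries 1 and 2 lay at -7.85 and -2.45, against 24.6 and 24.5 for HPC shSmc1a. Set and hairpin were not told apart here. All 59 members were among the 18065 identifiers that passed the filter on low counts. By edgeR's quasi-likelihood test with Benjamini-Hochberg adjustment over all of them, 7 of 59 members (11.9%) passed an adjusted p of 0.05, 5 higher and 2 lower in HPC shRad21. Of all identifiers tested 2.75% passed, 1.21% higher and 1.54% lower, and of the 470 candidates 6.6%. The 5 differed by 0.96 to 2.17 on the log2 scale and the 2 by -1.26 and -0.47. The median log2 fold change was 0.17 over members and 0.00030 over all tested. ENSMUST00000029871.10 was among the 5, with 26.8, 25.1 and 15.6 CPM in HPC shRad21, against 7.06 and 9.62 CPM in HPC shSmc1a. Its groups did not overlap, and the log2 fold change was 1.44 (SE 0.29, edgeR adjusted p = 0.0113).

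The count of 7 became 2 without HPC shRad21 library 2 and 12 without HPC shRad21 library 3. It was 1 without HPC shSmc1a library 1 and 4 without HPC shSmc1a library 2. Leaving out either shSmc1a library leaves 1, which is then assumed to vary like the libraries of the other groups. The cause of these changes in the count was not tested. With a term for the library sets it was 8, of which 6 were among the 7. For ENSMUST00000029871.10 that term gave 0.99 (edgeR adjusted p = 0.00339). The fold change was 1.37 (edgeR adjusted p = 0.0555) without HPC shRad21 library 2 and 1.21 (edgeR adjusted p = 0.217) without HPC shSmc1a library 1.

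Against HPC Luc, 10 members (16.9%) passed in HPC shRad21, 7 higher and 3 lower. The choice used the HPC Luc libraries, so nothing is read from the members' share beside that of all identifiers. Of all identifiers 7.85% passed, 3.91% higher and 3.95% lower, and of the candidates 14.3%, so the share was near that of the candidates. The 7 were higher by 0.45 to 0.85 on the log2 scale, and the 3 differed by -2.60 to -0.35. The lowest was ENSMUST00000198477.1, with 81.3, 101 and 48.3 CPM in HPC shRad21. Its log2 fold change of -2.60 (SE 0.75, edgeR adjusted p = 0.0390) became 0.09 (edgeR adjusted p = 0.933) without HPC Luc library 1. ENSMUST00000166731.1 had 11.2, 10.1 and 8.22 CPM in HPC shRad21, all below the HPC Luc libraries. Its log2 fold change was -0.75 (SE 0.14, edgeR adjusted p = 0.00213). It was named for being called lower in this comparison, so these values describe that choice. The count of 10 was 5 without HPC Luc library 1, 5 without HPC shRad21 library 2 and 6 without HPC Luc library 3, and 17 with a term for the library sets.

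In HPC shSmc1a, 11 members (18.6%) passed against HPC Luc, 6 higher and 5 lower. The choice used the HPC Luc libraries here too, so nothing is read from that share beside that of all identifiers. For the shSmc1a libraries, library set and hairpin cannot be told apart. Of all identifiers 4.33% passed, 2.35% higher and 1.98% lower, and of the candidates 7.66%. The 6 were higher by 0.39 to 1.11 on the log2 scale and the 5 differed by -2.15 to -0.38. Members thus differed from HPC Luc in both directions, and their median log2 fold change was 0.05, or -0.08 without HPC shSmc1a library 1. The lowest was ENSMUST00000029871.10, at -2.15 (SE 0.28, edgeR adjusted p = 0.000258), and at -1.76 with a term for the library sets. In HPC shRad21 its log2 fold change against HPC Luc was -0.71 (SE 0.22, edgeR adjusted p = 0.0545), which did not pass and did pass in 6 of 14 alternatives.

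ENSMUST00000166731.1 had 10.4 and 9.05 CPM in HPC shSmc1a and a log2 fold change of -0.77 (SE 0.16, edgeR adjusted p = 0.00885), and -0.54 (edgeR adjusted p = 0.0128) with a term for the library sets. With shSmc1a library 1 or 2 left out, so that 1 shSmc1a library was set against the spread of the other groups, it was -0.86 and -0.69, with edgeR adjusted p of 0.0628 and 0.121. ENSMUST00000042070.5 had 8.59 and 9.996 CPM in HPC shSmc1a and 5.79, 6.73 and 8.49 CPM in HPC shRad21. Its log2 fold changes against HPC Luc were 0.77 (SE 0.28, edgeR adjusted p = 0.145) and 0.35 (SE 0.26, edgeR adjusted p = 0.490). With a term for the library sets the value for HPC shSmc1a was 0.34 (edgeR adjusted p = 0.383), and with only the libraries compared it was 0.77 (edgeR adjusted p = 0.0489), which passed. For ENSMUST00000198477.1 in HPC shSmc1a, at 73.5 and 155 CPM, the log2 fold change was -2.02 (SE 0.85, edgeR adjusted p = 0.227), and -0.55 with that term. As the library sets were drawn here, without a label for them, HPC Luc library 3 is the only control placed with the shSmc1a libraries. Most of the shSmc1a comparison then crosses the sets, and what the term removes may include effects of the hairpin, which was not tested. The count of 11 was 10 with a term for the library sets, 8 of them among the 11. It was 7 without HPC Luc library 1 or without HPC Luc library 2, and 3 and 5 with shSmc1a library 1 or 2 left out, again with 1 shSmc1a library remaining.

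**Figure D5:**
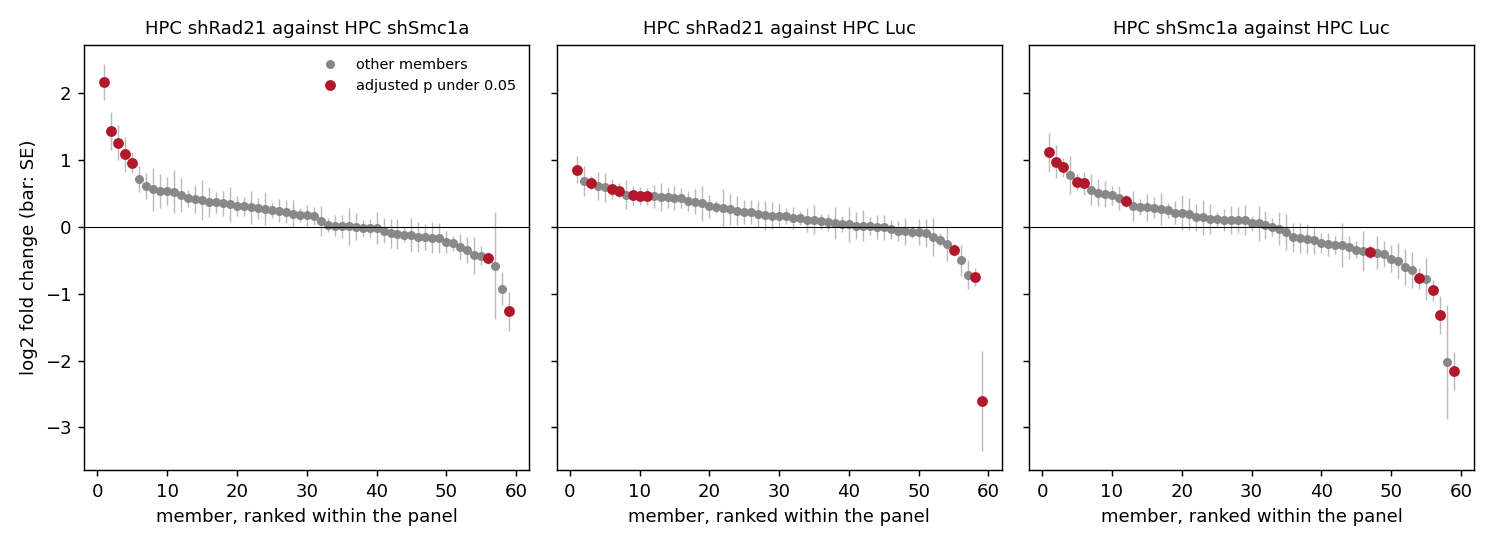
Log2 fold changes with standard errors of the 59 members are ranked within each of 3 comparisons between progenitor groups, with members past an adjusted p of 0.05 in red. From left to right 7, 10 and 11 members passed, in both directions, and the lowest point of the middle panel is ENSMUST00000198477.1 at -2.60.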

How the data were processed

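The 15 RNA-seq tables hold raw counts per transcript identifier, deposited by the authors. Per the submitters' processing notes, STAR 2.4.0 and HTSeq were used with build mm10. The sources used here do not give the counting settings, strandedness or annotation, and where transcripts overlap or are nearly identical their reads may be split or lost. The 5 lines of each table that name no transcript were left out. Reads in no feature came to 9.19% to 9.50% of the totals in the Ery libraries and 15.1% to 18.0% in the HPC libraries. Ambiguous reads came to 26.5% to 26.9% in the Ery libraries and 24.2% to 26.4% in the HPC libraries. Both shares thus separated the stages, so the drop from HPC to Ery goes with this difference, whose cause was not tested. CPM were computed over assigned counts without 1 identifier, with totals of 14838100 to 24421800.

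The members and lists were chosen with earlier results of these data known. Tests used edgeR 4.0.16 in R 4.3.3 (filterByExpr, TMM, quasi-likelihood fit of all 15 libraries with 1 mean for each of 6 groups). The biological coefficient of variation was 0.09. Standard errors came from each fold change and its F value. Scripts were tested on simulated data. At most 4 identifiers are named, the 2 members of highest Ery shStag2 to Ery Luc ratio with at least 5 CPM in HPC Luc, and the 2 not yet named with the lowest log2 fold change among those called lower in HPC shRad21 against HPC Luc. Alternatives were other scalings and thresholds, DESeq2 1.42.0, other sets of libraries, a replicate block and a library set term. The 3 promoter contact lists and chromatin immunoprecipitation samples were not analysed here, as no table pairs the identifiers with genes.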

Additional observations from a re-analysis of the deposited data

Results flagged for a closer look

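ENSMUST00000029871.10 differed between the HPC shRad21 and HPC shSmc1a knockdowns by a log2 fold change of 1.44, and the test of that difference itself brought it here. These groups cross the library sets, and with a term for the sets the value was 0.99. In all, 7 members passed the same test between these knockdowns. The groups hold 2 or 3 libraries, too few to test single libraries for standing apart, and 1220 CPM of ENSMUST00000198477.1 in HPC Luc library 1 beside 89.8 and 52.6 CPM is given for that reason as a value only.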

How the results depend on the processing

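The 59 members became 39 with CPM over every identifier (37 shared), 136 with a minimum of 1 CPM, 25 with a minimum of 5 CPM, 14 with at least 2 times Ery Luc, 13 with Ery Luc at most 1 part in 3 of HPC Luc, and 104 or 99 with the Ery libraries numbered 1 or 2 alone. TMM gave 54 (46 shared), DESeq2 size factors 53 (43 shared) and the HPC libraries numbered 3 left out 61 (52 shared). Leaving out each library gave 55 to 95, the highest without Ery Luc library 1.

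Fitting only the libraries compared called 5 members for HPC shRad21 against HPC Luc, 4 of them among the 10, and 3 for HPC shRad21 against HPC shSmc1a, 2 of them among the 7. The term for the library set gave 17 for HPC shRad21 against HPC Luc. Without a filter 12 members passed between HPC shRad21 and HPC shSmc1a, in a fit whose prior degrees of freedom were infinite, and 15 and 14 against HPC Luc. With each library left out the counts ran from 5 to 10 for HPC shRad21 and 3 to 12 for HPC shSmc1a against HPC Luc, and from 1 to 12 between HPC shRad21 and HPC shSmc1a. The fold change of ENSMUST00000198477.1 ran from -3.13 to 0.09 for HPC shRad21 and from -2.67 to 0.67 for HPC shSmc1a against HPC Luc, reversed without HPC Luc library 1 at 0.0918 and 0.673. DESeq2 gave it no adjusted p. The cause of the other changes was not tested.

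Deviations of libraries with the same number correlated at 0.043, 0.107 and 0.187 for HPC shRad21 with HPC Luc. For HPC shSmc1a with HPC Luc they correlated at -0.019 and -0.013, and the main fit did not pair libraries by number. These low values do not settle whether the numbers carry a shared origin, as the HPC libraries numbered 3 stood apart within their groups. That origin was not tested. With the replicate number as a block (the replicate block), 16 members passed for HPC shRad21 and 20 for HPC shSmc1a against HPC Luc, and 19 between them. ENSMUST00000042070.5 then passed for HPC shSmc1a against HPC Luc, at 1.08 (edgeR adjusted p = 9.57e-05), as it did without a filter (edgeR adjusted p = 0.00208).

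Promoter contacts of members were not run, as no table pairs the identifiers with genes. Counts as low as 15 reads limit the ratios of the lowest members.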
